A study of Mus musculus with 72 samples.

Results

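The genes described here are 10 regulators of the developing spinal cord: Pax3, Pax7, Msx1, Dbx1, Irx3, Nkx6-1, Nkx6-2, Olig2, Ptf1a and Prdm13. They were chosen by symbol, out of 45321 genes represented in the data, and each was represented by its Ensembl transcript with the highest total count. Their messenger RNA was followed while mouse embryonic stem cells that had or lacked Nup133, a scaffold subunit of the nuclear pore, differentiated towards neuroectoderm. Of the 10 genes, 9 passed the filter on low counts and were tested. Ptf1a, at 16 counts over all 18 samples, did not pass and is given by its counts.

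Controls were HM1 (Nup133+/+, XY), which gave replicates 1 and 2, and 1A4 (Nup133+/+, Sox1gfp/+, XY), a line derived from a blastocyst. The knockouts were lines 14 and 19 (Nup133-/-, XY), made from HM1 by CRISPR/Cas9, and line 319 (Nup133merm/merm, Sox1gfp/+, XX), derived from a blastocyst. The labels give line 319 an extra chromosome 8 and an extra chromosome 12, and call the chromosome count of line 19 likely rather than certain. Cells were collected at day 0 from serum and LIF after the feeder fibroblasts had been removed by plating, and at day 2 in N2B27 medium without LIF. Day 3 cells had in addition received 1 µM all-trans retinoic acid for 24 hours. There were 18 samples, 3 for each genotype on each day, and the same lines were followed over the 3 days. What was separate between the HM1 replicates is not given in the labels, so p-values measure only the spread between these samples, which may in part be technical. Retinoic acid was given to controls and knockouts alike, and no untreated day 3 sample was analysed here.

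Progenitors of the spinal cord take their identity from their position between the roof plate, which secretes BMP and Wnt proteins, and the floor plate, which secretes Sonic hedgehog. Paired-box and homeodomain factors answer to these signals and divide the tissue into domains, many of them by repressing each other. Pax3, Pax7 and Msx1 mark dorsal progenitors, Dbx1 and Irx3 the intermediate ones, and Nkx6-1, Nkx6-2 and Olig2 the ventral ones. Ptf1a and Prdm13 act later in the dorsal cord, where Ptf1a directs cells to an inhibitory neuron fate and the zinc finger protein Prdm13, one of its targets, represses genes of the excitatory fate. Retinoic acid, made by the somites beside the neural tube, is known to drive neural progenitors towards spinal identities.

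Retinoic acid treatment was followed by a rise of Pax3, Pax7, Dbx1 and Irx3 in control and knockout cells in the fit over all lines. The rise of Dbx1 was seen only in the HM1-derived samples, since 1A4 and line 319 each held 2 counts at day 3. In the knockout lines Msx1, Irx3 and Prdm13 were higher than in controls at day 3, by 7.12-fold, 2.93-fold and 15.2-fold in the fit over all lines. None of these 3 calls was kept when either HM1 replicate was left out. Msx1 was higher in each of the 3 knockout lines. Irx3, Dbx1 and Prdm13 reached their high levels in lines 14 and 19. Line 319 stood within the control range for Irx3 and at 2 counts for Dbx1. For Prdm13 it stood at 0.828 counts per 1e6 library counts (CPM), against 0.242 to 0.416 CPM in controls. The ventral genes Nkx6-1, Nkx6-2 and Olig2 did not pass the test between genotypes at any day.

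Gene counts per sample ranged from 16.5 to 54.4 M, and the 18 samples separated by day along the first component of variation. Line 19 at day 2, the shallowest sample, lay apart from the other day 2 samples on the second component (-110.8 against -57.3 to -35.3). Line 319 lay apart from the other day 2 samples on the first component (-25.2 against 6.3 to 16.8). Nup133 averaged 268 ± 47.7, 244 ± 20.9 and 194 ± 19.3 CPM in controls at days 0, 2 and 3 (SD, n = 3) and 29.6 ± 6.81, 25.3 ± 9.20 and 18.5 ± 5.02 CPM in knockouts, lower in each knockout sample than in each control. An opposite-strand gene, Gm20388, overlaps Nup133. Neural progenitor markers (Sox1, Sox2, Sox3, Nes, Zbtb16, Hes5) summed to 383 to 552 CPM at day 0 and 386 to 813 CPM at day 3, and in line 319 to 415 and 386 CPM. The sums hide changes of single genes. From day 2 to day 3, 4 of the 6 were called higher in each genotype and 1 lower in knockouts, with a median log2 change of 2.44 in both. Of all genes, 12.5% were called higher in controls and 17.6% in knockouts. Embryonic stem cell markers (Pou5f1, Nanog, Zfp42, Esrrb, Klf4, Tfcp2l1) summed to 3655 to 5413 CPM at day 0 and 121 to 466 CPM at day 3. In bulk samples such as these, fewer cells of a type and less RNA per cell cannot be told apart.

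The stretches of DNA just upstream of Msx1, Dbx1 and Prdm13 are shown because these genes had the largest fitted differences between genotypes at day 3, and because day 3 cells had been exposed to a ligand of DNA-bound receptors. Each is the 250 bases before the RefSeq start on GRCm38.p6, 5′ to 3′ on the gene's own strand, which is the minus strand for all 3. Capitals mark matches on either strand to AGGTCA and GGGTCA (half-sites of nuclear receptors), CCAAT and TATAAA. A site of basic helix-loop-helix factors, CAGCTG, was searched too and is in none of the 3. RefSeq entries were matched for 9 of the 10 genes, all but Pax3.
Msx1, chr5:37824586-37824835: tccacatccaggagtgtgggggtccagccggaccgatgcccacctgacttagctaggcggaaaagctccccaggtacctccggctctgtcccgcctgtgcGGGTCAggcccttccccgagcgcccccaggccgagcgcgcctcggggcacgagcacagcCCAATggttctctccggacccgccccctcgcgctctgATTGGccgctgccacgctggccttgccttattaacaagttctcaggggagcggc
Dbx1, chr7:49636836-49637085: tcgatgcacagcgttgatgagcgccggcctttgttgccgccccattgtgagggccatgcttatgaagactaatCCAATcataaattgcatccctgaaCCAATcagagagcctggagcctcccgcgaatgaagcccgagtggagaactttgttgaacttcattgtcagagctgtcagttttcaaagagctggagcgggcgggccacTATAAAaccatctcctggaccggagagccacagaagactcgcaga
Prdm13, chr4:21685964-21686213: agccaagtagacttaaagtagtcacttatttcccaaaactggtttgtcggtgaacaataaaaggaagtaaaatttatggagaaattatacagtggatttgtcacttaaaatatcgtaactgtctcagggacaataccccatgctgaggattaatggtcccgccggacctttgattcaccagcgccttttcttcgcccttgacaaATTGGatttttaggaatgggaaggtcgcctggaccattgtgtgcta

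The 3 stretches differed in composition. That of Msx1 held 68.0% G and C and 20 CpG dinucleotides, that of Dbx1 52.8% and 12, and that of Prdm13 41.6% and 7, against medians of 52.4% and 6 over 32851 RefSeq promoters of the same length. Of the half-site spellings searched, GGGTCA, which 11.6% of all promoters hold, matched only the Msx1 stretch. AGGTCA, found in 14.0% of promoters, matched none of the 3. Other spellings of the half-site were not searched, so these counts do not show that Dbx1 or Prdm13 lack one. The Dbx1 stretch held a TATAAA, as 12.4% of promoters do. CCAAT, present in 33.8% of promoters, matched at 2 places in Msx1 and in Dbx1 and at 1 place in Prdm13. A match is a description of the letters and not a binding site, and no match says nothing about more distant DNA.

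**Figure D1:**
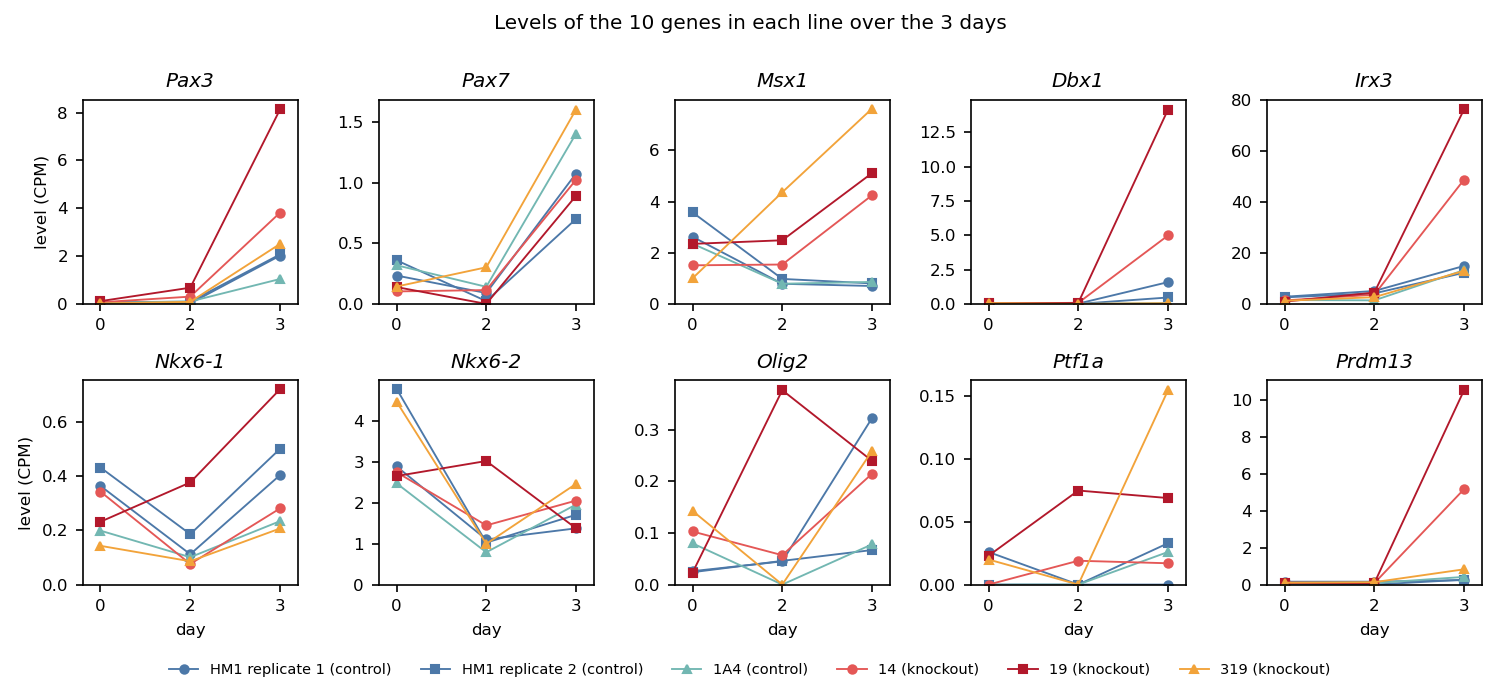
Levels of the 10 genes in CPM (vertical axis from 0, its own scale in each panel) at days 0, 2 and 3, with 1 line per HM1 replicate or cell line. Lines 14 and 19 end far above the other samples for Dbx1, Irx3 and Prdm13, while Msx1 ends above the controls in all 3 knockout lines.

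Pax3 (ENSMUST00000087086, chr1:78101270-78197134, minus strand), a paired-box factor of dorsal progenitors and neural crest, was, by its transcript on GRCm38, close to the limit of detection at day 0 and, in controls, at day 2. At day 0 all 6 samples held 1 to 5 counts. At day 2 controls held 1, 4 and 5 counts, and lines 14, 19 and 319 held 16, 9 and 2. The rise of the knockouts from day 0 to day 2 passed the test, but not without line 14, as given below. At day 3 the HM1 replicates reached 2.02 and 2.07 CPM and 1A4 reached 1.04 CPM, against 3.82, 8.13 and 2.51 CPM in lines 14, 19 and 319. All 3 knockout samples thus lay above all 3 controls, with line 19 the highest and line 319 close to HM1. The fitted difference at day 3 was 1.45 ± 0.41 on the log2 scale (SE; adjusted p = 0.051), just short of the threshold. It passed in 5 of 15 alternative settings (other normalizations, filters, fits or samples left out), with adjusted p from 0.0087 to 0.29. The rise from day 2 to day 3 passed in both genotypes, by 4.40 ± 0.55 in controls (adjusted p = 4.3e-05) and 3.92 ± 0.50 in knockouts (adjusted p = 4.2e-05).

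Pax7 (ENSMUST00000030508, chr4:139737062-139833528, minus strand), the close relative of Pax3 in the dorsal cord, rose as well but to similar levels in the genotypes. Day 3 levels were 1.08, 0.701 and 1.41 CPM in HM1 replicates 1 and 2 and 1A4, and 1.02, 0.892 and 1.60 CPM in lines 14, 19 and 319. The groups overlapped, and the fitted difference was 0.14 ± 0.40 (adjusted p = 0.88). From day 2 to day 3 the gene rose by 3.62 ± 0.50 in controls and 2.98 ± 0.50 in knockouts (adjusted p = 1.1e-04 and 4.1e-04). At day 0 the knockouts, at 0.103, 0.139 and 0.143 CPM, lay below the controls, at 0.234, 0.360 and 0.319 CPM. These values rest on 3 to 15 counts per sample, and the difference of -1.27 ± 0.51 did not pass the test (adjusted p = 0.35).

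Msx1 (ENSMUST00000063116, chr5:37820485-37824583, minus strand), a homeobox gene induced by BMP in the most dorsal progenitors, behaved differently from the Pax genes. Control levels fell from 2.63, 3.58 and 2.35 CPM at day 0 to 0.786, 0.976 and 0.788 CPM at day 2 and stayed at 0.700, 0.801 and 0.859 CPM at day 3. In the knockout lines 14, 19 and 319 the levels were 1.51, 2.35 and 0.999 CPM at day 0, 1.54, 2.49 and 4.36 CPM at day 2, and 4.25, 5.11 and 7.63 CPM at day 3. The genotypes therefore did not overlap at any day, with the knockouts above the controls at days 2 and 3 and below them at day 0, where line 19 lay only just under 1A4. Line 319, lowest of all at day 0, was highest at days 2 and 3. The fitted difference was -0.82 ± 0.38 at day 0 (adjusted p = 0.45), 1.68 ± 0.40 at day 2 (adjusted p = 0.045) and 2.83 ± 0.40 at day 3 (adjusted p = 0.0021). The day 3 call was kept in 13 of 15 alternative settings and ended without HM1 replicate 1 (adjusted p = 0.066) or HM1 replicate 2 (adjusted p = 0.060). The day 2 call was kept in 7 of 15, with adjusted p from 0.0019 to 0.43, and ended without HM1 replicate 1, HM1 replicate 2, 1A4 or line 19. Its change from day 0 to day 2, tested as an interaction, was 2.49 ± 0.55 but did not pass over all genes (adjusted p = 0.24).

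Irx3 (ENSMUST00000175795, chr8:91798525-91802067, minus strand), an Iroquois factor that sets the border between intermediate and motor neuron progenitors, was the most abundant of the 10 genes at day 3. Controls moved from 2.81, 2.57 and 1.51 CPM at day 0 to 5.08, 4.14 and 1.39 CPM at day 2 and 14.9, 12.3 and 13.3 CPM at day 3. Knockout lines 14, 19 and 319 moved from 1.37, 0.883 and 1.24 CPM through 3.63, 4.45 and 2.63 CPM to 48.9, 76.5 and 13.0 CPM. Line 319 ended within the control range, and lines 14 and 19 ended above every control. The fitted difference at day 3 was 1.55 ± 0.40 (adjusted p = 0.039). It was called in 8 of 15 alternative settings, with log2 differences from 1.09 (without line 19) to 2.19 (only HM1-derived samples) and adjusted p from 0.0034 to 0.28, and ended when any HM1 replicate or line other than line 319 was left out at all days. The gene lies on chromosome 8, of which line 319 carries an extra copy by its label, and an antisense gene, Irx3os, overlaps it with 236 counts over all samples.

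Dbx1 (ENSMUST00000032717, chr7:49631499-49636849, minus strand), which marks the progenitors of V0 interneurons near the middle of the cord, was nearly undetected before retinoic acid, with at most 4 counts in any day 0 or day 2 sample. At day 3 it reached 59 and 14 counts in HM1 replicates 1 and 2 (1.59 and 0.467 CPM) and 2 counts in 1A4 (0.052 CPM). Lines 14 and 19 held 302 and 413 counts (4.99 and 14.2 CPM), and line 319 held 2 counts (0.052 CPM). At day 3 both blastocyst-derived lines, control and knockout, were thus at 2 counts, while both HM1-derived knockouts exceeded both HM1 replicates. The HM1 replicates themselves differed by 1.66 in log2 CPM. From day 2 to day 3, counts summed over controls went from 1 to 75, a ratio of 97.4 per library size (exact 95% interval 17.0 to 3900, counting error only), and the rise passed the test in controls (adjusted p = 0.0053) and knockouts (adjusted p = 5.1e-04). Between genotypes at day 3 the difference was 2.84 ± 0.81 (adjusted p = 0.053). It was called in 4 of 15 alternative settings, with log2 differences from 1.86 (without line 19) to 3.68 (without HM1 replicate 1) and adjusted p from 0.0063 (without line 319) to 0.36 (without HM1 replicate 2).

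The ventral factors showed no difference that passed the test. Nkx6-1 (ENSMUST00000044125, chr5:101658139-101664996, minus strand), a homeodomain factor of ventral progenitors, held 2 to 21 counts per sample throughout. At day 3 it stood at 0.404, 0.501 and 0.234 CPM in HM1 replicates 1 and 2 and 1A4, and at 0.281, 0.721 and 0.207 CPM in lines 14, 19 and 319. The groups overlapped, and the difference was 0.02 ± 0.47 (adjusted p = 0.99), positive or negative depending on the samples kept. Nkx6-2 (ENSMUST00000097974, chr7:139579376-139582797, minus strand), its close relative, stood at 1.37, 1.70 and 1.95 CPM in controls and 2.05, 1.37 and 2.46 CPM in knockouts at day 3, a difference of 0.23 ± 0.39 (adjusted p = 0.78) that turned to -0.04 without line 319. Nkx6-2 levels are uncertain, since the gene lies opposite Inpp5a, which held 18768 counts, and the use of strand in counting is not given in the sources used here. Olig2 (ENSMUST00000035608, chr16:91225457-91228677, plus strand), the regulator of motor neuron and oligodendrocyte progenitors, held 0 to 13 counts per sample. Its day 3 levels of 0.323, 0.067 and 0.078 CPM in controls and 0.215, 0.240 and 0.259 CPM in knockouts overlapped, and the difference was 0.59 ± 0.80 (adjusted p = 0.72). At such counts a moderate difference was not detectable.

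Ptf1a stayed near 0 counts, and Prdm13 rose in the knockouts. Ptf1a (ENSMUST00000028068, chr2:19445663-19447501, plus strand), the basic helix-loop-helix factor of inhibitory neurons and of the pancreas, held 0 or 1 count in 16 of 18 samples, 2 counts in line 19 and 6 counts in line 319 at day 3. Prdm13 (ENSMUST00000144160, chr4:21677480-21685963, minus strand) held 0 to 7 counts in the 12 samples of days 0 and 2. At day 3 it reached 9, 8 and 16 counts in HM1 replicates 1 and 2 and 1A4 (0.242, 0.267 and 0.416 CPM), and 313, 307 and 32 counts in lines 14, 19 and 319 (5.17, 10.5 and 0.828 CPM). All 3 knockout lines lay above all 3 controls, lines 14 and 19 by far the most. The fitted difference at day 3 was 3.93 ± 0.75 (adjusted p = 0.011). It was called in 13 of 15 alternative settings and ended without HM1 replicate 1 (adjusted p = 0.12) or HM1 replicate 2 (adjusted p = 0.10). The log2 difference ranged from 3.15 without line 19 to 4.92 among only the HM1-derived samples, and was 4.77 without line 319 and 4.62 without 1A4. Within the knockouts the rise from day 2 was 5.73 ± 0.89 (adjusted p = 2.4e-04), and within the controls it was 1.96 ± 0.89 and did not pass (adjusted p = 0.13). The difference between these 2 rises, 3.76 ± 1.36, did not pass either (adjusted p = 0.48).

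**Figure D2:**
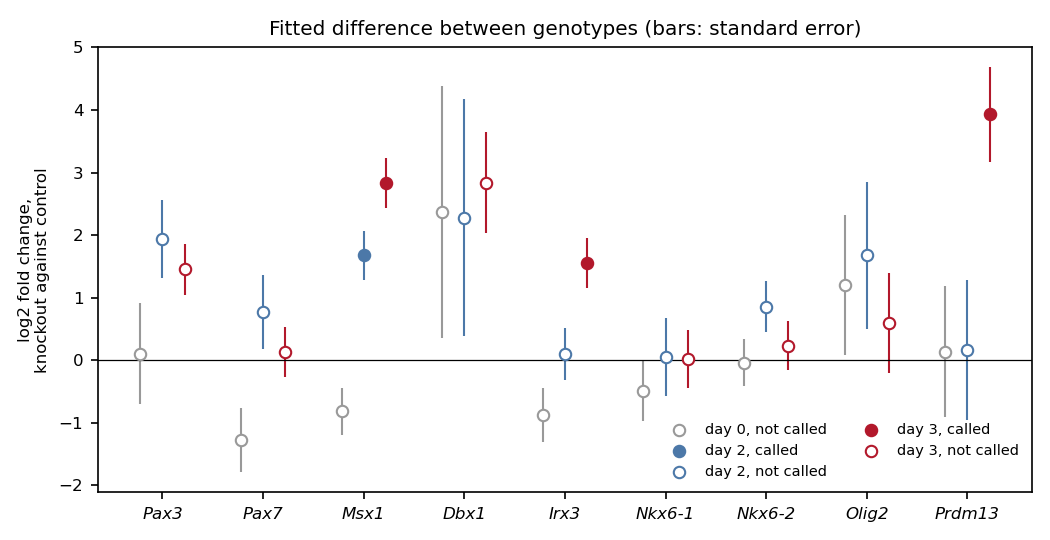
Fitted log2 fold change of knockout against control (vertical axis) for the 9 tested genes at days 0, 2 and 3, with bars of 1 standard error. Filled points passed the adjusted p threshold of 0.05: Msx1 at day 2, and Msx1, Irx3 and Prdm13 at day 3.

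Counted together, 3 of the 9 tested genes were called higher in knockouts at day 3 and none lower, where 2.75% of all 18273 tested genes were called higher and 5.19% in either direction. The median log2 fold change of the 9 was 1.45, against 0.02 for all genes tested. Because the genes were chosen with earlier results of these data known, these shares and medians describe the set and do not test it. At day 2 a single gene, Msx1, was called higher (0.635% of all genes higher, 1.6% either way), with a median of 0.85 against 0.02. At day 0 none was called with edgeR or with DESeq2 (0.854% of all genes either way), and 2 had an unadjusted p below 0.05, Pax7 and Msx1, as did 1946 of the 18273 genes. Counting samples in place of tests, 3 genes had all knockouts above all controls at day 3 (Pax3, Msx1, Prdm13), as did 17.6% of all genes, and Msx1 did at day 2, as did 9.94%. Another 3 had all knockouts below all controls at day 0 (Pax7, Msx1, Irx3), as did 9.7%. The day 3 count was 5 (Pax3, Msx1, Dbx1, Irx3, Prdm13) without line 319 or without line 19 at day 2, and 0 without HM1 replicate 1 or HM1 replicate 2. All-gene calls moved in the same settings. They numbered 2020 of 18672 tested genes without line 319 and 2993 of 18911 without line 19 at day 2. Without those HM1 replicates, 37 and 17 of all genes were called, against 948 with all samples.

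**Figure D3:**
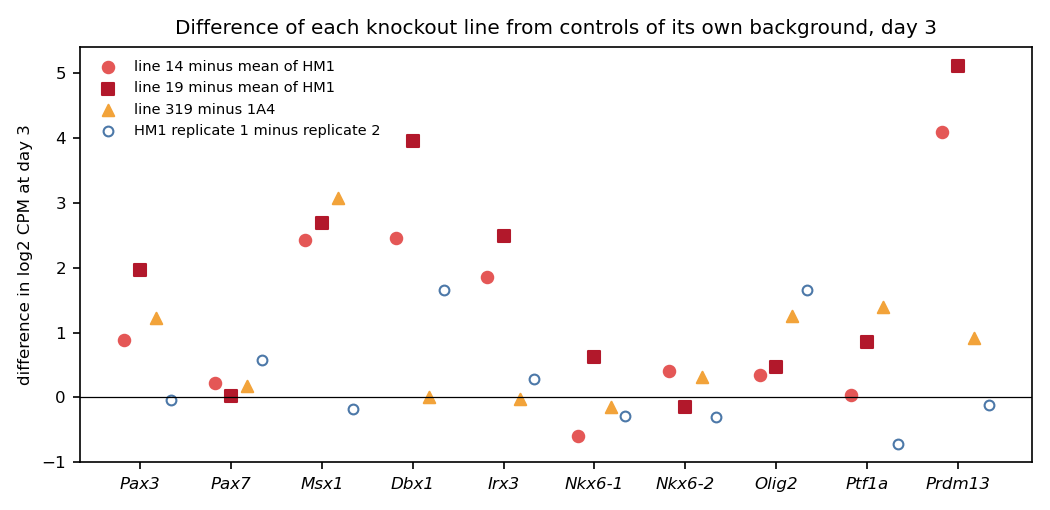
Difference in log2 CPM at day 3 (vertical axis) between each knockout line and the controls of its own background, with the difference between the 2 HM1 replicates for scale. Msx1 is raised by 2.42 to 3.08 in all 3 lines, whereas for Irx3 and Dbx1 line 319 lies at -0.03 and 0.00. The Dbx1 value of line 319 sets 2 counts against 2 counts in 1A4.

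The pattern by line was set against the genetic background. Relative to the mean of the HM1 replicates, line 14 was higher in log2 CPM at day 3 by 4.09 for Prdm13, 2.45 for Dbx1 and 1.85 for Irx3, and line 19 by 5.11, 3.95 and 2.49. Relative to 1A4, line 319 differed by 0.91, 0.00 and -0.03 for the same genes. The Dbx1 value sets 2 counts against 2 counts, too few to measure a difference. A direct test of the difference between backgrounds gave -2.23 ± 0.46 for Irx3 (adjusted p = 0.13) and -3.94 ± 1.12 for Prdm13 (adjusted p = 0.27). None of the 9 genes passed that test at any day, where 0.969%, 0.547% and 0.0219% of all genes were called at days 0, 2 and 3. Its blastocyst-derived arm had 1 sample per genotype and day, assumed to vary like the HM1-derived samples. With no filter on low counts, 2 of them passed, Irx3 and Prdm13 (adjusted p = 3.5e-04 and 2.3e-04), where 465 of 30658 genes were called, against 4 of 18273 with the filter. At day 3 the stem cell markers summed to 466 CPM in line 319, 230 CPM in line 14 and 121 CPM in line 19, against 355 to 417 CPM in controls. Neural progenitor markers, which had already summed to 383 to 552 CPM at day 0, had no gene called between genotypes at day 3. They summed to 386, 646 and 813 CPM in lines 319, 14 and 19 and to 429 to 488 CPM in controls. Spinal neuron markers went another way, with the highest sum in line 319. They summed to 134 CPM in line 319, 73.5 CPM in line 14 and 84.9 CPM in line 19, and to 46.1 to 47.8 CPM in controls. The part of these marker levels in the differences between lines was not tested, and line, sex and chromosome gain cannot be told apart from background in line 319.

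The change between days within each genotype gave further calls. From day 0 to day 2 Pax7, Msx1 and Nkx6-2 fell in controls, with log2 changes of -1.89 ± 0.53, -1.76 ± 0.39 and -1.80 ± 0.40 (adjusted p = 0.012, 0.0027 and 0.0026), where 15.5% of all genes were called lower. With the line or HM1 replicate as a replicate block, which pairs the days, 4 genes were called, the added gene being Nkx6-1, and without HM1 replicate 2 only 1, Msx1. In knockouts Pax3 and Irx3 rose over the same days, by 2.14 ± 0.64 and 1.52 ± 0.44 (adjusted p = 0.017 and 0.014), where 20.8% of all genes were called higher. Neither passed without line 14.

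From day 2 to day 3, with retinoic acid, 5 of 9 genes were called higher in controls (Pax3, Pax7, Dbx1, Irx3 and Nkx6-1), where 12.5% of all genes were, and 6 of 9 in knockouts (Pax3, Pax7, Msx1, Dbx1, Irx3 and Prdm13), where 17.6% were. Irx3 rose by 2.11 ± 0.41 in controls and 3.55 ± 0.44 in knockouts (adjusted p = 0.0019 and 3.5e-05). Nkx6-1 rose by 1.46 ± 0.50 in controls (adjusted p = 0.048) and changed by 1.42 ± 0.55 in knockouts (adjusted p = 0.058). Its control means were 0.332, 0.133 and 0.38 CPM at days 0, 2 and 3, so the rise ended near the day 0 level. Msx1 rose by 1.04 ± 0.37 in knockouts (adjusted p = 0.043) and changed by -0.12 ± 0.40 in controls (adjusted p = 0.87). Of 15 alternative settings, 4 kept the Nkx6-1 call in controls and 8 the Msx1 call in knockouts. The control count was 3 (Pax3, Pax7, Irx3) without HM1 replicate 1 or HM1 replicate 2. None of the 9 genes passed the test of a change in the knockout difference between days, with 0.0219% of all genes called from day 0 to day 2 and 0.0383% from day 2 to day 3. DESeq2 called Msx1 from day 0 to day 2.

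**Figure D4:**
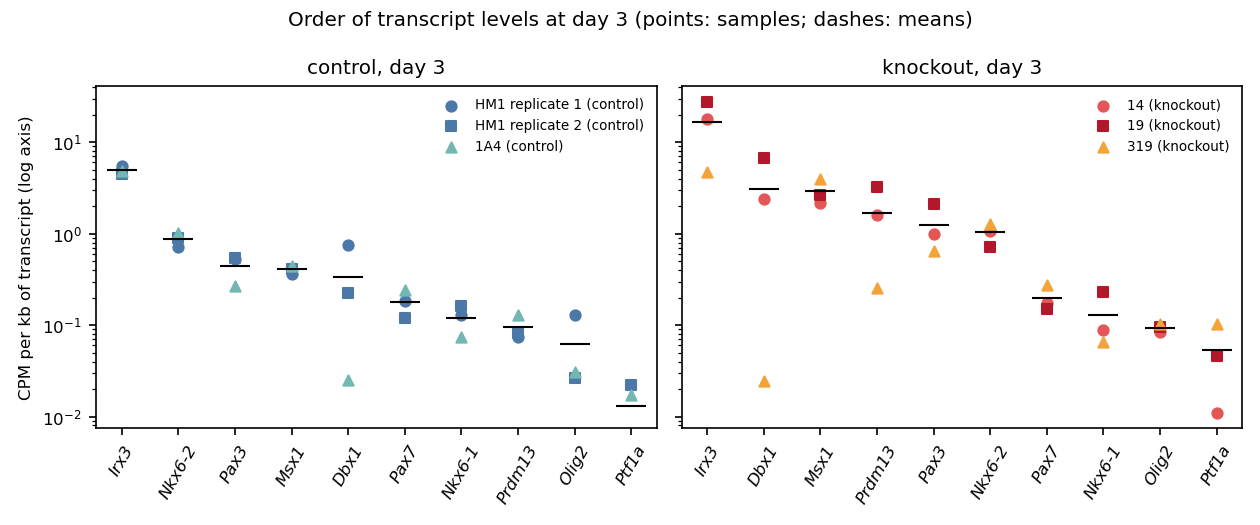
CPM per kilobase of transcript (log axis) in each day 3 sample, genes ordered by the mean of the group (dash). Irx3 leads in both genotypes, and Dbx1, Msx1 and Prdm13 stand higher in the knockout order by mean. In line 319 alone, Dbx1 is the lowest of the genes. Ptf1a in HM1 replicate 1 is at 0 and is not drawn.

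Per kilobase of transcript, the order of mean levels in day 3 controls was Irx3 (4.91 ± 0.49 CPM per kb, SD, n = 3), Nkx6-2 (0.879 ± 0.152), Pax3 (0.443 ± 0.150), Msx1 (0.406 ± 0.042), Dbx1 (0.336 ± 0.380), Pax7 (0.181 ± 0.060), Nkx6-1 (0.121 ± 0.043), Prdm13 (0.0951 ± 0.029), Olig2 (0.0616 ± 0.057) and Ptf1a (0.0131 ± 0.012). Sample ranges of neighbours in this order were separate between Irx3 and Nkx6-2, between Nkx6-2 and Pax3, and between Olig2 and Ptf1a, and overlapped elsewhere. In day 3 knockouts the order began with Irx3 (16.8 ± 11.6), Dbx1 (3.06 ± 3.43), Msx1 (2.93 ± 0.91), Prdm13 (1.70 ± 1.5), Pax3 (1.25 ± 0.76) and Nkx6-2 (1.03 ± 0.29), followed by Pax7 at 0.200 ± 0.065. Only Nkx6-2 and Pax7 were separate among neighbours there. In line 319 alone, Dbx1 was lowest of all, at 0.0247 CPM per kb, and Prdm13, at 0.255, lay below Pax7, at 0.274. Before differentiation, Nkx6-2 and Msx1 led in controls, at 1.77 ± 0.65 and 1.47 ± 0.33 CPM per kb.

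Among tested genes with at least 1 CPM on average in a group, leaving out predicted genes and those on chromosomes 8, 12, X, Y and MT, the 5 with the pattern most like Prdm13 over the 18 samples were Ndnf, a secreted neurotrophic factor (Pearson r of log2 CPM 0.935), Fgb, the fibrinogen beta chain (0.934), Pcdh9, a protocadherin (0.931), Zfp12, a zinc finger protein (0.929), and Stxbp5l, a syntaxin-binding protein (0.924). The samples share lines and days, so these are descriptions of pattern only. Ndnf averaged 1.94 CPM in control and 13.8 CPM in knockout day 3 samples. Of the other 9 patterning genes, Dbx1 (r = 0.856), Irx3 (0.848) and Pax3 (0.804) were most like Prdm13, and Nkx6-2 (-0.08) least.

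Other genes of the same domains were counted by list. For each day 3 list here and below, the share over all 18273 tested genes was 2.75% called higher and 5.19% called in either direction. Of 14 tested genes of dorsal progenitors, 1 was called higher in day 3 knockouts, Zic1, a zinc finger factor of the dorsal neural tube (2.94 ± 0.44, adjusted p = 0.0030), and the list's median was 0.28. The number was 0 without HM1 replicate 1 or HM1 replicate 2, 2 without 1A4 or without line 19 at day 2, and 3 without line 319. Of 12 genes of intermediate and ventral progenitors, 4 were called higher and 1 lower, with a median of 1.11. Pax6, which marks progenitors of the middle of the cord, stood at 30.2 ± 10.7 CPM in controls and 179 ± 143 CPM in knockouts (2.25 ± 0.45, adjusted p = 0.012). Irx5, the neighbour and relative of Irx3 (2.04 ± 0.36), the zinc finger factor Sp8 (2.03 ± 0.47) and the hedgehog-responsive homeobox gene Nkx2-9 (2.4 ± 0.56) were the other genes called higher, with adjusted p of 0.0066, 0.024 and 0.024. Shh, the ventral signal itself, was lower, at 1.49 ± 0.64 CPM in controls and 0.171 ± 0.096 CPM in knockouts (-2.99 ± 0.46, adjusted p = 0.0032). Without HM1 replicate 2 none of these 5 was called, without HM1 replicate 1 only Shh was, without 1A4 the list had 3 calls, and without line 319 Nkx2-9 moved to 1.09 (adjusted p = 0.058).

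Among 21 tested genes of spinal neurons, 7 were called higher in day 3 knockouts and none lower, with a median of 1.23. The difference was positive for 18 and negative for 3. Those 3 were Mnx1 (-1.40 ± 0.43, adjusted p = 0.069), Tal1 (-0.91 ± 0.42, adjusted p = 0.22) and Tlx3 (-0.11 ± 0.62, adjusted p = 0.95). Prdm12, a relative of Prdm13 in V1 and sensory lineages, held 1 to 4 counts in controls and 12 to 28 counts in knockouts (2.97 ± 0.57, adjusted p = 0.012). Lhx1 and Pax2, which inhibitory neurons downstream of Ptf1a express, were higher by 2.24 ± 0.46 and 1.70 ± 0.39 (adjusted p = 0.013 and 0.022). The sensory and dorsal interneuron factors Pou4f1 and Lhx2 were higher by 1.26 ± 0.20 and 1.23 ± 0.34 (adjusted p = 0.0042 and 0.048). The number called was 0 without HM1 replicate 1 or HM1 replicate 2, 3 without 1A4 or without line 14, and 11 without line 19 at day 2. In that last setting 2993 of all 18911 tested genes were called, against 948 of 18273 with all samples.

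Of 9 tested genes that partner with Ptf1a, are its targets or mark transmitter type, 1 was called, with a median of 0.01. It was Slc17a6, the vesicular glutamate transporter of excitatory neurons, with 3 counts summed over controls and 21 over knockouts, a ratio of 5.76 per library size (exact 95% interval 1.72 to 30.1, counting error only; adjusted p = 0.044 in edgeR). It was called in 4 of 14 alternative settings, and the list's count was 0 without either HM1 replicate, 1A4, line 14 or line 19, 2 without line 19 at day 2 and 3 without line 319. Rbpj, which binds DNA together with Ptf1a, stood at 68.6 ± 6.93 CPM in controls and 59.7 ± 6.88 CPM in knockouts, and Gad1, an enzyme of GABA synthesis, at 0.649 ± 0.165 and 0.645 ± 0.197 CPM. The other tested members were not called either. Slc32a1 and Gad2, also of inhibitory transmission, had log2 differences of 1.29 ± 0.52 and 0.77 ± 0.55 (adjusted p = 0.16 and 0.45), and the targets Kirrel2 and Nphs1 -0.98 ± 0.47 and -2.04 ± 0.71 (adjusted p = 0.24 and 0.10). The Ptf1a partners Tcf3 and Tcf12 stood at 0.01 and 0.41. These genes without a call were named after their values had been seen.

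**Figure D5:**
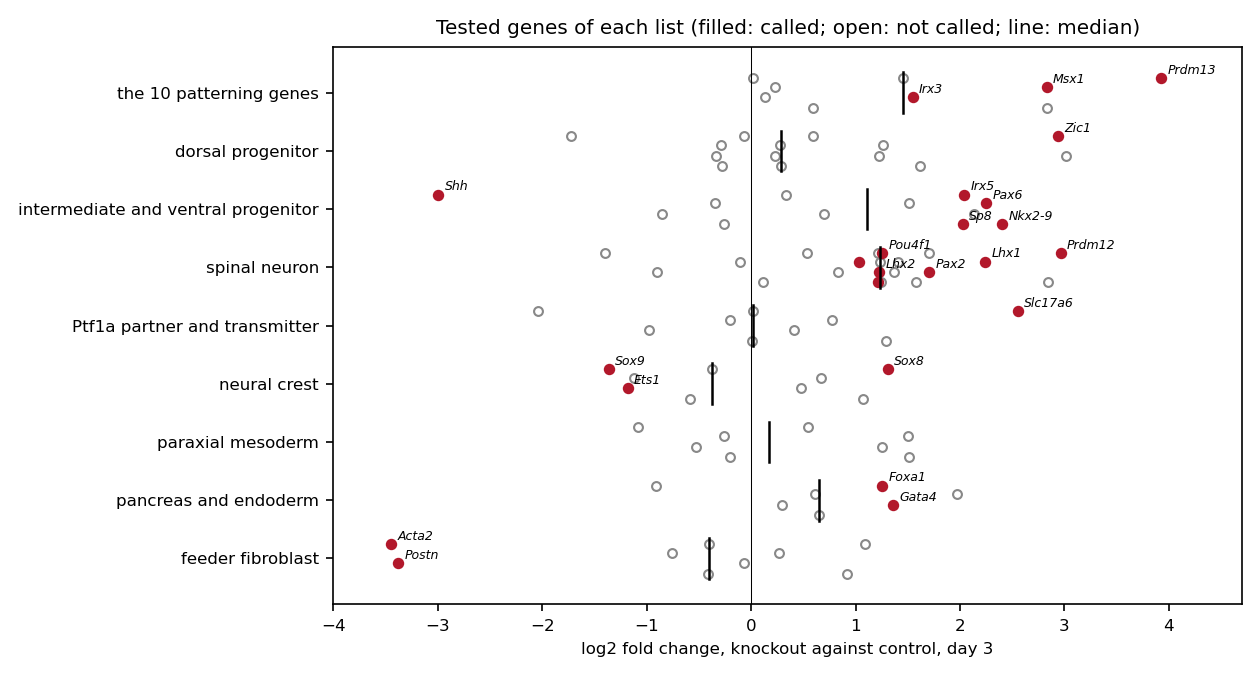
Fitted log2 fold change of knockout against control at day 3 (horizontal axis) for the tested genes of each list drawn, filled where called, with the list's median as a line and at most 5 called genes named per list. The stem cell and neural progenitor lists, without a call at day 3, are not drawn. The patterning genes have a median of 1.45, and those of spinal neurons and of intermediate and ventral progenitors lie at 1.23 and 1.11.

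The same lists were counted at the earlier days, where 0.854% (day 0) and 1.6% (day 2) of all genes were called. At day 2 Zic1 and Gsx1 were higher by 2.15 ± 0.49 and 2.59 ± 0.59 among dorsal genes (adjusted p = 0.039 for each), and the count of 2 was 0 without HM1 replicate 1 or HM1 replicate 2, and 1 without 1A4, line 14, line 19 or line 19 at day 2. Among ventral genes Ptch1 was higher by 1.12 ± 0.27, and Foxn4 and Shh were lower, with adjusted p of 0.049, 0.038 and 3.7e-04. Shh held 237 counts in controls and 2 in knockouts at day 2, a ratio of 77.0 per library size (exact 95% interval 21.1 to 639, counting error only). The ventral count of 3 was 1 without HM1 replicate 1, HM1 replicate 2 or line 14, and 5 without line 319. With day 2 fitted alone, 0 of 16736 tested genes were called. No day 2 call named here was kept in that setting, nor was that of Nup133. Of 15 alternative settings, Gsx1 lost its call in 8 and Ptch1 in 10. At day 0 Foxn4 and Foxa2 were lower by -1.56 ± 0.34 and -1.99 ± 0.39 (adjusted p = 0.040 and 0.020), and Prdm12 was higher by 3.51 ± 0.63 (adjusted p = 0.017). Foxn4 and Foxa2 were not called without HM1 replicate 1, HM1 replicate 2, line 14 or line 19, nor Prdm12 without HM1 replicate 1, HM1 replicate 2 or line 14. Lhx1 was lower at day 0 and day 2, by -5.53 ± 0.60 and -4.20 ± 0.59 (adjusted p = 2.8e-04 and 0.0031), the opposite of its day 3 direction. Outside the spinal cord lists, Foxd3 and Sox2 were higher at day 2 (1.63 ± 0.34 and 0.83 ± 0.16), and Postn and Acta2 lower at day 2 (-5.21 ± 0.76 and -3.16 ± 0.48), as were Ets1 and Msgn1 at day 0 (-1.37 ± 0.30 and -3.85 ± 0.83). Without HM1 replicate 1 or HM1 replicate 2 the calls of Foxd3, Sox2, Ets1 and Msgn1 ended, and Msgn1 was at -7.51 without line 319. Other single libraries also ended calls: 1A4 for Foxd3 and Sox2, line 14 for Sox2, Ets1 and Msgn1, line 19 for Ets1 and Msgn1, line 319 for Ets1, and HM1 replicate 2 for Acta2.

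Several of the 10 genes are also used outside the spinal cord, so markers of other tissues were summed at day 3. Neural crest markers, of a lineage that uses Pax3, Pax7 and Msx1, summed to 45.3 to 49.0 CPM in controls and 26.4 to 38.3 CPM in knockouts. Of 9 tested crest genes, with a median of -0.37, Sox8 was higher by 1.31 ± 0.30 and Sox9 and Ets1 lower by -1.36 ± 0.32 and -1.18 ± 0.29 (adjusted p = 0.022, 0.024 and 0.029). Paraxial mesoderm markers, of the tissue that forms muscle and also uses Pax3 and Pax7, summed to 14.2 to 26.5 CPM in controls, 23.3 and 21.7 CPM in lines 14 and 19, and 83.1 CPM in line 319. None of 8 tested mesoderm genes was called in edgeR, with a median of 0.17, with log2 differences of 1.5 ± 0.54 for Meox1, 1.51 ± 0.69 for Pax1, 1.25 ± 0.47 for Foxc1 and -1.09 ± 0.31 for Tbx6 (adjusted p = 0.12, 0.22, 0.13 and 0.053). Msgn1 and Myf5 held at most 2 counts in any day 3 sample. Pancreas and endoderm markers, of the other tissue of Ptf1a, summed to 64.3 to 79.3 CPM in controls and 86.1 to 103 CPM in knockouts. Of 7 tested, with a median of 0.65, Gata4 and Foxa1 were higher by 1.36 ± 0.31 and 1.26 ± 0.34 (adjusted p = 0.023 and 0.045), and the pancreatic factor Pdx1 stood at 0.203 ± 0.077 CPM in controls and 0.917 ± 0.966 CPM in knockouts (1.98 ± 0.57, adjusted p = 0.055). Ins1 and Gcg were at 0 counts in every day 3 sample. Feeder fibroblast markers summed to 210 to 298 CPM in controls and 153 to 236 CPM in knockouts. Of 9 tested, with a median of -0.40, Postn and Acta2 were lower by -3.38 ± 0.57 and -3.45 ± 0.48 (adjusted p = 0.0054 and 0.0017). None of the 6 tested stem cell markers or the 6 tested neural progenitor markers was called, with medians of -0.58 and 0.18. The crest, mesoderm, pancreas and endoderm lists had 0 calls without HM1 replicate 1, HM1 replicate 2 or line 14, and without 1A4 they had 1, 1 and 0. Without line 19 at day 2 the pancreas and endoderm list and the feeder list had 4 calls each, and the mesoderm list had 1. Without line 319 the stem cell list had 3 calls and the mesoderm and neural progenitor lists 1 each. The stem cell list had 1 without 1A4, and the feeder list 1 without HM1 replicate 2. The part of these markers in the results was not tested.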

How the data were processed

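RNA of 18 samples was sequenced as polyA-selected, strand-specific libraries, each deposited as 4 technical files. The values are raw read counts per Ensembl transcript, as deposited by the authors. Reads were demultiplexed with bcl2fastq 2.17.1.14, with STAR 2.4.0k, SAMtools and HTSeq also named, on mm10, per the submitters' processing notes. Settings, annotation release and use of strand are not given in the sources used here. Technical files were summed, and the transcript with the highest total count stood for its gene. edgeR 4.0.16 (R 4.3.3, limma 3.58.1) fitted quasi-likelihood models with TMM scaling to genotype by day plus background, with 11 residual degrees of freedom, over 18273 genes passing filterByExpr. Calls had a Benjamini-Hochberg adjusted p below 0.05 over all genes. DESeq2 1.42.0 was an alternative. CPM used TMM library sizes, and log2 CPM a prior count of 2. Library depth was 16.5 to 54.4 M counts, and intervals cover counting error only. The scripts were tested on simulated data.

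The members and gene lists were chosen with earlier results of these data known. All members are named, and from each list up to 5 called genes per comparison by size of change, and the 5 genes most correlated with Prdm13. Same-line samples pair the days, since they come from the same cell line or HM1 replicate, and 16 of 18 correlations of their deviations were above 0.1.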

Additional observations from a re-analysis of the deposited data

Results flagged for a closer look

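In the lists beside the 10 patterning genes, 4 differences between groups had an adjusted p below 0.05 in edgeR. The knockout difference of Lhx1 changed by 6.44 ± 0.75 (log2, SE) from day 2 to day 3 (adjusted p = 0.0025). The knockout difference of the blastocyst-derived lines minus that of the HM1-derived lines was 5.08 ± 0.71 for Gata3 at day 0 (adjusted p = 0.019). At day 2 it was -2.71 ± 0.49 for Lmx1b (adjusted p = 0.049) and 3.33 ± 0.58 for Ngfr (adjusted p = 0.043). The blastocyst-derived lines had 1 control and 1 knockout sample per day, so the spread behind the last 3 p-values comes only from the HM1-derived samples, and those differences have no replicate check within the blastocyst-derived lines.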

How the results depend on the processing

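Of 1308 values of the patterning genes under alternative settings, 1175 kept direction and side of the threshold, 45 lost a call, 24 gained one and 64 changed sign, none of the last being called with all samples. At day 2 the count of genes called between genotypes, 1 with all samples, was 0 with transcripts summed, with the day fitted alone, among only the HM1-derived samples, and when line 19 at day 2 was dropped, was 2 with DESeq2, and ranged from 0 to 1 with a replicate left out. At day 3 it was 5 without line 19 at day 2 and ranged from 0 to 5 with a replicate left out. Left-out replicates gave 1 to 4 calls for day 2 against day 0 in controls, 0 to 3 in knockouts, and 3 to 5 for day 3 against day 2 in controls. DESeq2 called 1 change of the knockout difference from day 0 to day 2, and no filter gave 2 background differences at day 3. Nkx6-1 at day 3 ranged from -0.492 to 0.348 with a replicate left out and was -0.011 with the day fitted alone, and Nkx6-2 ranged from -0.036 to 0.423. Over all genes, day 3 calls numbered 948, 2031 with DESeq2, 2993 without line 19 at day 2 and 2020 without line 319. The replicate block, which pairs days by line, gave 4 calls for day 2 against day 0 in controls in place of 3 and changed no other count of calls. Settings for list counts and list genes were chosen after seeing the data. The cause of these changes was not tested. Counts under about 20 per sample limit Nkx6-1, Olig2 and Ptf1a.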
